A study of Homo sapiens with 28 samples.

Results

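In the 14 H3K27ac peak lists of SW872 cells, 542 genomic regions carried a peak in both of the lists whose peak names read YAP5SA and in none of the other 12 lists. They were found by merging all peaks of the 14 lists that overlapped or touched, which gave 138757 merged regions, and by keeping those with a peak in both YAP5SA-named lists only. The 542 exclusive regions made up 0.391% of all merged regions and 2.38% of the 22743 regions with a peak in both of these lists. Peak presence in all 14 lists chose them, so the number of regions and the strength of their peaks are given as a description with no test.

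Which of 2 constructs the cells behind these regions carried cannot be told apart from the lists. The names of the peaks say YAP5SA, and the sample labels of the same 2 libraries say YAP-TFE3. The construct in the peak names differed from the sample label in 14 of 14 lists. Peaks in the lists with the sample label YAP5SA are named TFE3. The label TAZ4SA goes with the peak name EV, TAZ-CAMTA1 with TAZ4SA, Empty Vector with CAMTA1, CAMTA1 with TC and TFE3 with YT. Libraries other than the YAP5SA-named pair are called by their labels below, and replicate 1 and replicate 2 without further name are the libraries labelled YAP-TFE3 and named YAP5SA.

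The study profiled H3K27ac by chromatin immunoprecipitation and sequencing in SW872, an established cell line from a human liposarcoma. Each of 7 labels had 2 libraries: the control Empty Vector, the fusions YAP-TFE3 and TAZ-CAMTA1, the mutants TAZ4SA and YAP5SA, and the full-length TFE3 and CAMTA1. All cells had been stably transduced with a retroviral vector that was empty or carried a Flag-tagged construct, and the methods give separate transductions for the replicates of the sequencing experiments. Per the labels the cells were at 90% confluence 48 hours before collection, apart from sub-confluent CAMTA1 cells, whereas the methods for this assay give 90% for CAMTA1 as well. The antibody label of every library says H3K27ac, while the extraction protocol in the labels describes an antibody against the Flag tag. The study's methods give an antibody against acetylated H3K27 and biological duplicates for the H3K27ac profiling. They give biological triplicates for the Flag-tagged constructs. The peaks are called H3K27ac here after the antibody label, and the lists themselves do not show which antibody was used. The constructs were expressed from the vector, and no source used here states that the YAP or TAZ of the cells themselves had been removed.

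YAP and TAZ are transcriptional coactivators that bind DNA through TEAD transcription factors and are held in the cytoplasm when the Hippo kinases phosphorylate them. YAP5SA and TAZ4SA have serines that those kinases target replaced by alanines, which keeps the proteins in the nucleus. YAP-TFE3 joins the N-terminal end of YAP to the C-terminal part of the transcription factor TFE3, and TAZ-CAMTA1 joins TAZ to CAMTA1 in a similar way; both fusions occur in the vascular sarcoma epithelioid hemangioendothelioma. H3K27ac is an acetyl mark on histone H3 that is found at active promoters and enhancers, the elements through which YAP and TAZ mostly act, so a peak present in 1 condition and absent from another can mark an element that is active in the first.

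The YAP5SA-named lists held 57505 peaks in replicate 1 and 39653 peaks in replicate 2, and the 14 lists ranged from 5721 to 102009 peaks. The lowest background in fragments at a peak summit, a relative measure of the depth at which a list was called, was 2.43 in replicate 1 and 2.01 in replicate 2, against 1.42 to 2.80 over all lists. Every list was called by library, with a lowest −log10 q of 1.30 or just above.

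Regions exclusive to 1 pair of libraries were rare for most labels. For the pair named YAP5SA they were 2.38% of the 22743 regions with a peak in both lists. The pair labelled Empty Vector had 49 such regions, at 0.232% of the regions with a peak in both of its lists, TAZ-CAMTA1 had 22 (0.154%), CAMTA1 had 16 (0.0938%), YAP5SA had 5 (0.0297%) and TFE3 had none. The pair labelled TAZ4SA stood far above all of these, with 13253 exclusive regions, 27.4% of its regions with a peak in both lists. The YAP5SA-named pair was therefore the second of the 7 pairs both by number and by share. The TAZ4SA lists were also the longest, at 98992 peaks or more, and the part of list length in this order was not tested.

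The remaining 22201 regions with peaks in both YAP5SA-named lists were shared with at least 1 other library, and most of them with many. A peak in 11 of the 12 other libraries was found at 6583 regions, and 4061 regions (17.9%) had a peak in all 12. At the other end 712 regions had a peak in exactly 1 other library and 701 in exactly 2. The exclusive regions were the smallest of these classes.

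**Figure D1:**
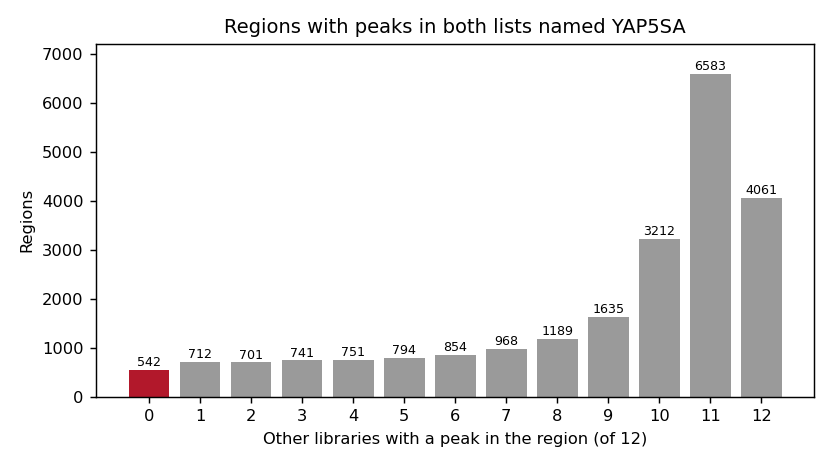
Number of regions with peaks in both lists named YAP5SA (vertical axis) by the number of the 12 other libraries that also have a peak there (horizontal axis). The red bar is the 542 regions found in no other library, the smallest class, and the highest bar is the 6583 regions shared with 11 others.

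Replicate 1 shared regions with several libraries at least as often as with its own replicate. Regions with a peak in replicate 1 and exactly 1 other library numbered 837 with TAZ4SA replicate 1, 833 with TAZ-CAMTA1 replicate 2, 560 with TAZ4SA replicate 2 and 542 with its own replicate 2. The own replicate was thus the fourth partner by count. Per 1000 peaks of the partner list the own replicate came second, at 13.7, after TAZ-CAMTA1 replicate 2 at 17.2. From the side of replicate 2 the order was different: its own replicate 1 came first with 542 regions, followed by TAZ4SA replicate 1 with 162, TAZ4SA replicate 2 with 88 and TAZ-CAMTA1 replicate 2 with 83. Neither library shared more than 23 such regions with either of the 2 lists labelled YAP5SA.

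**Figure D2:**
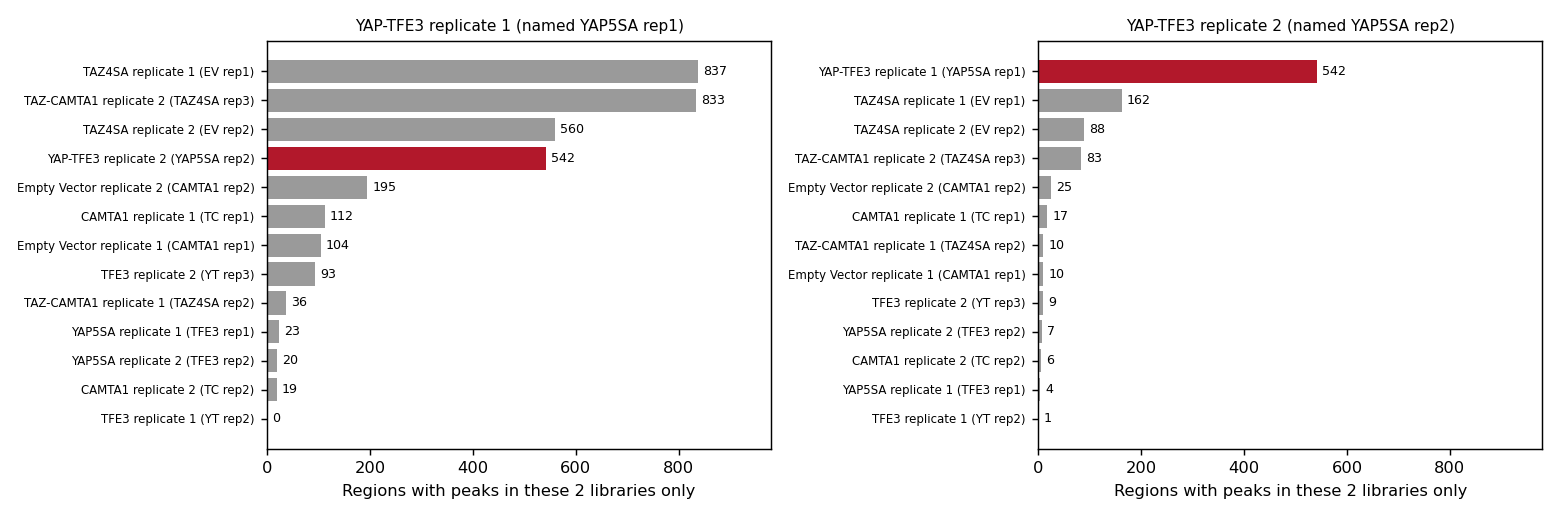
Number of regions with a peak in 1 of the lists named YAP5SA and in exactly 1 other list (horizontal axes), for replicate 1 on the left and replicate 2 on the right, by partner library with its peak name in brackets. Red bars are the 542 regions of the own pair, which are the fourth bar for replicate 1 and the first for replicate 2.

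Regions listed in a single library outnumbered the exclusive regions. In replicate 1, 6720 of 39606 merged regions (17.0%) had no peak in any other list, and in replicate 2 it was 1174 of 25763 (4.56%). The exclusive regions were 1.37% of the regions of replicate 1 and 2.10% of those of replicate 2. With replicate 1 left out, so that a peak in replicate 2 was enough, 1926 regions were exclusive (1.43% of 135093 merged regions), and with replicate 2 left out 7354 were (5.33% of 138039).

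A single library outside the pair held most of the regions that missed the rule by 1 list. Of the 712 regions with peaks in both YAP5SA-named lists and in exactly 1 other library, 470 (66.0%) had that peak in TAZ-CAMTA1 replicate 2, whose peak names read TAZ4SA. TAZ4SA replicate 1 accounted for 69 of them (9.69%), Empty Vector replicate 2 for 46 and TAZ4SA replicate 2 for 45. TAZ-CAMTA1 replicate 1 accounted for 27. Without TAZ-CAMTA1 replicate 2 the number of exclusive regions rose from 542 to 1058 (0.769% of 137657 merged regions), and no other library outside the pair moved it by as much as 1.5 times.

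The 3 regions just outside the rule with the best ranks all had their other peak in TAZ-CAMTA1 replicate 2. At chr12:113992184-113995375 (coordinates of GRCh37, here and below) the fold over background was 9.32 in replicate 1 and 8.98 in replicate 2, and the peak of TAZ-CAMTA1 replicate 2 had a fold of 7.07. At chr6:138152043-138154784 the folds were 9.30 and 7.59, against 5.17 in the third library. At chr16:809061-812426 they were 9.75 and 7.46, and the third library had a peak of only 920 bp with a fold of 3.37. These 3 regions were stronger in both YAP5SA-named libraries than most of the exclusive ones. Over the 712 regions the peak in the third library had a median fold of 3.89, and 63 of these peaks (8.85%) had a q above 0.01. For the 470 in TAZ-CAMTA1 replicate 2 the median fold was 4.37, against 4.80 over all peaks of that list.

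The exclusive regions had low folds and short peaks beside the shared ones. Their median fold at the summit, the fragment count plus 1 over the local background plus 1, was 3.93 in replicate 1 (range 2.12 to 11.1) and 3.66 in replicate 2 (range 2.29 to 9.32). Regions shared with at least 1 other library had median folds of 7.14 and 5.86, and regions present in all 14 lists had 13.5 and 10.9. Regions with exactly 1 other library lay between, nearer to the exclusive ones, at 4.37 and 3.91. The median fold was thus lowest in the exclusive class and highest in the class listed everywhere. Averaged over both replicates the median fold of the 542 was 3.80, and it was 11.9 over the 118 regions that were exclusive in lists shortened to equal length.

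The fragment counts behind these folds were small. The median summit of an exclusive region held 16 fragments in replicate 1 (range 8 to 48) over a background of 3.19, and 12 fragments in replicate 2 (range 8 to 34) over a background of 2.43. Shared regions held a median of 31 and 22 fragments over backgrounds of 3.19 and 2.71. The higher fold of shared regions thus came with more fragments at the summit and not with a lower background. The median −log10 q was 5.05 and 3.55 at exclusive regions, against 17.0 and 10.2 at shared ones. A −log10 q of at least 5 in both libraries was reached by 94 exclusive regions (17.3%; 95% Wilson interval 14.4 to 20.8%) and by 16443 shared regions (74.1%).

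**Figure D3:**
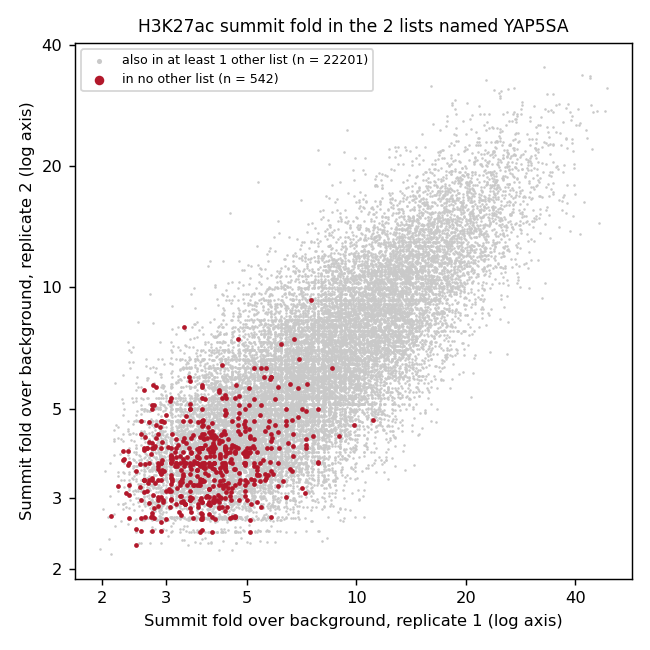
Fold over background at the summit in replicate 1 (horizontal, log axis) and replicate 2 (vertical, log axis) of the lists named YAP5SA, 1 point per region. The 542 exclusive regions (red) lie at the low end of the 22201 shared regions (grey), with medians of 3.93 and 3.66 against 7.14 and 5.86.

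The peaks at exclusive regions were also shorter. The median peak width was 618.5 bp in replicate 1 and 458 bp in replicate 2, against 1657 and 1121 bp at shared regions. The merged region had a median width of 775.5 bp (range 283 to 3330), of which a median of 348 bp (range 10 to 1608) was covered by both libraries. Both summits lay a median of 150.5 bp apart, and at 330 regions (60.9%) they were within 200 bp of each other. The peaks overlapped by at least 50% of the shorter one at 467 regions (86.2%). A single peak in each list made up 516 of the regions (95.2%), and the other 26 had more than 1 peak in 1 of the replicates. Averaged over both replicates the median peak width was 538 bp, against 928 bp over the 361 regions that were exclusive at a −log10 q of at least 5 and 3691 bp over the 118 of the equal-length lists.

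Within its own list, a typical exclusive region ranked in the middle of replicate 1 and in the lower part of replicate 2. The median rank by −log10 p was 30012.5 of 57505 peaks in replicate 1 (52.2% down the list) and 28968 of 39653 in replicate 2 (73.1%). The 22743 regions were also divided into 10 equal groups by the rank in the weaker library. None of the 542 lay in the 4 strongest groups, which end at rank 12308, and 9 lay in the next group. The number rose from there through 15, 48, 82 and 147 to 241 in the weakest group, where exclusive regions were 10.6% of all regions and which held 44.5% of them. Exclusive regions thus became more frequent, from the fifth group on, with each step towards weaker peaks. Counted anew with only the peaks at a −log10 q of at least 5 in all 14 lists, 361 regions were exclusive, 0.694% of the merged regions left, and 94 of them were among the 542. In lists shortened to the 5721 strongest peaks each, 118 regions were exclusive (1.06% of those left), none of them among the 542, while at a q of at most 0.01 there were 501 (0.414%).

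**Figure D4:**
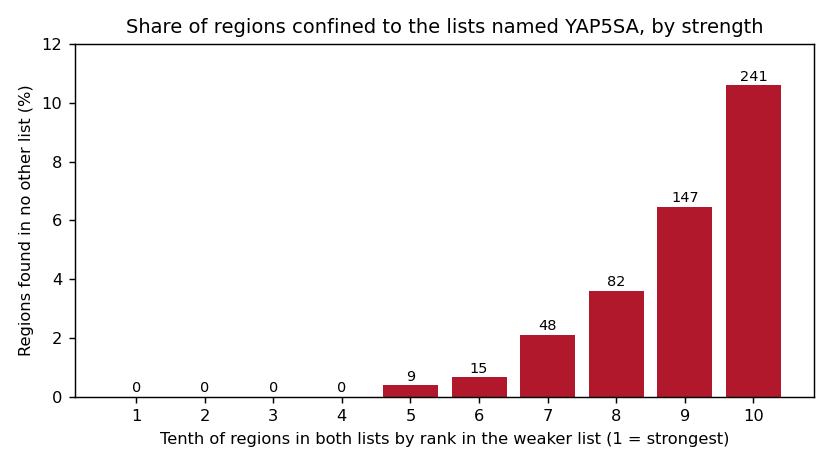
Percent of regions with peaks in both lists named YAP5SA that were found in no other list (vertical axis) in 10 equal groups of the 22743 regions, from the strongest to the weakest by rank in the weaker library (horizontal axis), with the number of exclusive regions above each bar. The percent is 0 in the first 4 groups and 10.6% in the last, where 241 of the 542 lie.

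The lowest fold listed differed between lists and with the local background. At summits with the lowest background of their list, the 12 other lists held no peak below folds of 2.49 to 3.56, depending on the list. Peaks over a higher background were listed at lower folds too, down to 2.24 in Empty Vector replicate 2 among the 712 regions with exactly 1 other library. Of the 542 regions, 523 (96.5%) were above the lowest of these values in both replicates, and 222 (41.0%) were above the highest, which is that of the list of 5721 peaks labelled TFE3 replicate 1. Without that list the highest value was 3.22, and 323 regions (59.6%) exceeded it in both replicates. The signal of the other libraries at these places was not analysed here, and a region missing from a list can still carry signal that was not called there. Raising the fold demanded in both replicates left fewer regions, exclusive or not. At a fold of at least 3, 383 of 21280 regions with peaks in both lists were exclusive (1.80%). At 4 it was 102 of 16544 (0.617%), at 5 it was 21 of 12545 (0.167%) and at 6 it was 5 of 9581 (0.0522%). At a fold of 8 in both none of the 542 remained, while 5652 of the 22743 regions passed.

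The folds of both replicates were also compared region by region. Over the 542 regions the log2 folds of the 2 libraries had a Pearson r of 0.299 and a Spearman rho of 0.250, against 0.787 and 0.769 over the 22201 shared regions. The points come from the same 2 libraries and the exclusive regions span a narrow range of folds, so these values are a description. The fold was higher in replicate 1 at 313 of the exclusive regions (57.7%) and at 70.6% of the shared ones. The median log2 difference, replicate 1 minus replicate 2, was 0.09 and 0.26.

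The regions with the strongest support in both libraries were taken by the rank in the weaker of the 2. The first was chr7:133537446-133538472, with 38 fragments and a fold of 5.78 in replicate 1 and 25 fragments and a fold of 5.90 in replicate 2. It ranked 12577 and 11398 in the lists, and the nearest peak of any other library was 59219 bp away. No exclusive region reached a better rank in its weaker library than this one. The second, chr7:29339856-29341132, had folds of 6.58 and 5.77 on 33 and 23 fragments. The third, chr14:20385708-20387729, had folds of 6.94 and 5.61 on 36 and 22 fragments, with 1608 bp covered by both libraries, the widest such interval of all, and no peak of another library within 341003 bp. These regions lay over higher local backgrounds than most, at 4.17 to 5.75 fragments in replicate 1.

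Of the 10 regions ranked best in this way, 4 were on chromosome 4. At chr4:152405150-152407381 the fold was 7.50 in replicate 1 and 9.32 in replicate 2, the highest fold of an exclusive region in replicate 2. At chr4:156312913-156315667 the folds were 6.99 and 6.65, and the nearest other peak was 234324 bp away. At chr4:53066550-53068922 they were 6.23 and 7.22, with a distance of 161626 bp. These 3 stood alone, without a peak of another library within 10 kb. The fourth, chr4:154348155-154351484, was the widest exclusive region, at 3330 bp. Its folds were 7.31 and 5.75, and 8 of the 12 other libraries had a peak within 10 kb, the nearest at 2001 bp.

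The other 3 of the 10 were chr3:135929036-135930125, chr2:121370839-121372978 and chr9:89890711-89893149. The first had the highest fold of the 10 in replicate 1, at 8.57, with 6.32 in replicate 2. The second had folds of 6.75 and 7.45 with summits 6 bp apart. The third had 4.74 and 7.44 with summits 19 bp apart, and 1 other library had a peak 1940 bp from it. In all, 8 of the 10 had no peak of another library within 10 kb, and their widths ran from 1027 to 3330 bp, all above the median of 775.5 bp for exclusive regions.

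At the weak end, replicate 2 stood close to the limit of its list. The region chr8:57634478-57634887 had −log10 q values of 1.62 and 1.32 with folds of 2.62 and 2.70. The next value, a −log10 q of 1.33 in replicate 2, was shared by 3 regions, chr1:47877112-47878150, chr2:176736909-176737407 and chr3:38216459-38217832, which had 3.72, 1.83 and 6.06 in replicate 1. At chr3:38216459-38217832 all 12 other libraries had a peak within 10 kb, the nearest 641 bp away, whereas the chr8 region had none within 268946 bp.

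Distances from the exclusive regions to peaks of other libraries are given as a description. The same shares over other regions were not worked out, so whether such nearness is particular to the exclusive regions was not tested. The median distance to the nearest peak of another library was 3330.5 bp, and it ran from 4 bp to 1167920 bp. A peak of another library was within 1 kb of 198 regions (36.5%), within 5 kb of 301 regions (55.5%; 95% Wilson interval 51.3 to 59.7%) and within 50 kb of 457 (84.3%). The share within 5 kb was 32.7% with a −log10 q of at least 5 in all lists, 27.5% with peaks within 1000 bp merged and 11.0% with lists of equal length. Lower values follow in part from the settings. Merging leaves out, by definition, regions with another library's peak within 1000 bp. The stricter and the equal-length lists hold fewer peaks, with 52024 and 11162 merged regions left. Of the 542, the remaining 85 regions (15.7%) were more than 50 kb from any such peak. At 193 regions (35.6%) none of the 12 other libraries had a peak within 10 kb, at 92 exactly 1 had, and at 16 all 12 had.

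The median fold in replicate 1 was slightly higher at regions that stood apart. It was 3.73 at regions within 1 kb of another library's peak, 3.82 at 1 to 5 kb, 4.08 at 5 to 50 kb and 4.20 beyond 50 kb. In replicate 2 the median fold was 3.61, 3.68, 3.68 and 3.75 in the same order. The median width was 807 bp at the 193 regions with no other library within 10 kb and 756 bp at the other 349. The differences between these classes were small beside the range of folds over the regions and were not tested.

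The regions farthest from any other peak, picked after their values were seen, were a neighbouring pair on chromosome 2. At chr2:83330054-83330784 the folds were 5.82 and 3.99, and at chr2:83331063-83331926 they were 5.82 and 5.99. Peaks of the other 12 libraries came no nearer than 1167920 bp to the first. The next, chr12:18082246-18083123, had folds of 5.24 and 3.33 and a distance of 816908 bp.

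Exclusive regions seldom lay next to regions acetylated in every library. A region present in all 14 lists was within 10 kb of 22 exclusive regions (4.06%; 95% Wilson interval 2.70 to 6.07%). The share was 5.20% over the 712 regions with exactly 1 other library (interval 3.79 to 7.08%). It was 8.09% over the 18140 shared regions that were not in all 14 lists. A shared region of the same 2 lists was within 10 kb of 223 exclusive regions (41.1%).

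The constructs of the neighbouring peaks were compared over the 12 other libraries. The rule fixes that none of them has a peak inside a region, and not whether 1 lies beside it. It did use these 12 lists, and unevenly. Of the 712 regions with exactly 1 other library, 470 had that peak in TAZ-CAMTA1 replicate 2. The share of regions near a library's peaks may depend on how many regions its own peaks removed, and the test below cannot tell this apart. Each library's value was the percent of the 542 regions with 1 of its peaks within 10 kb, with every list shortened to its 5721 strongest peaks. The values were 2.95 and 3.51% for TAZ4SA, 5.35 and 4.43% for TAZ-CAMTA1 and 4.61 and 3.51% for YAP5SA. They were 3.69 and 2.21% for Empty Vector, 4.06 and 2.77% for CAMTA1 and 2.95 and 4.06% for TFE3. The first set ran from 2.95 to 5.35% and the second from 2.21 to 4.06%, so that they overlapped in part, with 3 of the 6 libraries of the first set above every library of the second.

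Labels that contain YAP or TAZ averaged 4.06% ± 0.889 (SD, n = 6 libraries) and the other labels 3.29% ± 0.760 (SD, n = 6). The difference of 0.769 percentage points was within the spread between libraries (exact two-sided permutation test over all splits of 12 libraries into 6 and 6, p = 0.156). The smallest p these splits of single libraries allow is 0.00216. With the libraries grouped by peak name instead of label, the difference was 0.523 percentage points (exact permutation p = 0.359). The p-values measure the spread between these libraries only. Libraries of the same label were moved separately in the splits, and no test took the label as its unit. The labels and the methods differ on the confluence of the CAMTA1 cells, and its part was not tested.

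With the full lists the values were higher in 11 of the 12 libraries, and lowest in the shortest list. TAZ-CAMTA1 replicate 2 had a peak within 10 kb of 44.6% of the regions, TAZ4SA replicates 1 and 2 of 43.5 and 39.1%, and the TFE3 replicate 1 list of 5721 peaks of 2.95%. TAZ-CAMTA1 replicate 2 thus reached the level of the TAZ4SA lists from 48372 peaks, against 98992 and 102009. The means were 30.2% ± 13.5 and 20.9% ± 10.4 (SD, n = 6 each), and the difference of 9.26 percentage points was again within the spread (exact permutation p = 0.212). It turned to −7.84 points with the full lists grouped by peak name, at means of 21.6 and 29.5% (exact permutation p = 0.303), a setting chosen after seeing the data.

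**Figure D5:**
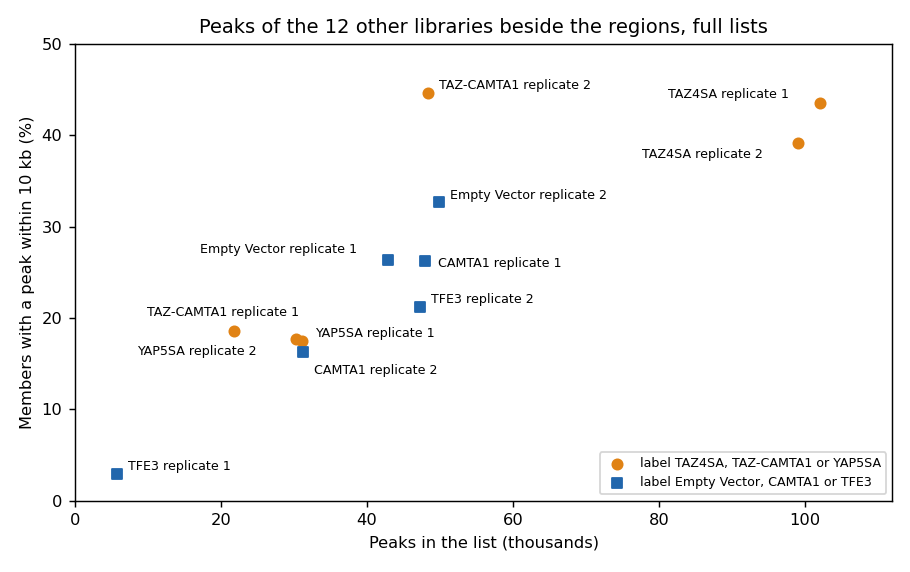
Percent of the 542 exclusive regions with a peak within 10 kb in each of the 12 other libraries (vertical axis) by the number of peaks in that library's full list (horizontal axis, in units of 1000 peaks), with labels containing YAP or TAZ as orange circles and the other labels as blue squares. Values run from 2.95% in the shortest list to 44.6% in TAZ-CAMTA1 replicate 2.

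Most exclusive regions had no other exclusive region within 50 kb. No share over other sets of regions of this size was worked out, so whether the exclusive regions cluster was not tested. Another exclusive region was within 10 kb of 46 of them (8.49%), within 50 kb of 77 (14.2%; 95% Wilson interval 11.5 to 17.4%) and within 200 kb of 118 (21.8%). The share within 50 kb was 24.4% without TAZ-CAMTA1 replicate 2, 26.7% without replicate 1 of the own pair and 59.4% without its replicate 2, all with more exclusive regions. It was 6.89% with peaks within 1000 bp merged, 6.65% with a −log10 q of at least 5 and 1.69% with lists of equal length, all with fewer. Linked at gaps of up to 50 kb, they formed 465 single regions, 31 pairs and 5 runs of 3. The shortest runs were chr20:6687838-6692770 and chr15:50454647-50459599, each with 3 regions inside 5 kb. In the first the folds were 3.56 to 5.82 in replicate 1 and 2.47 to 4.16 in replicate 2, and in the second they were 3.49 to 3.55 and 2.99 to 5.12.

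In windows of 1 Mb, 440 windows held an exclusive region and 357 of them held only 1. The window with the most held 4, on chromosome 15 from 63 to 64 Mb, among 31 regions with peaks in both lists. The 4 were chr15:63031518-63031849, chr15:63043433-63046271, chr15:63295266-63296278 and chr15:63330781-63331514. Their folds were modest, from 2.29 to 5.01 in replicate 1 and from 3.41 to 4.17 in replicate 2. Each had between 4 and 12 other libraries with a peak within 10 kb, so that this window was acetylated in other libraries as well.

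All 542 regions were on chromosomes 1 to 22 and X, and their density varied between chromosomes. Per 100 regions with peaks in both lists, there were 3.70 exclusive regions on chromosome 4 (32 of 866), 3.63 on chromosome 8 (40 of 1101), 3.58 on chromosome 13 (16 of 447) and 3.16 on chromosome 5 (43 of 1361). The lowest densities were 0.538 on chromosome 19 (5 of 929), 0.840 on chromosome 17 (9 of 1072) and 1.13 on chromosome 10 (10 of 886). Since exclusive regions were weak, the number on each chromosome was also set beside the number that the strength of its regions alone would give, using the 10 groups by rank. Chromosome 4 had 1.42 times that number, chromosome 8 had 1.45 times, chromosome 13 had 1.48 times and chromosome 5 had 1.47 times. Chromosomes 19, 17 and 10 had 0.244, 0.381 and 0.447 times. Most exclusive regions on chromosome 5 lay over a local background above 3.19 fragments in replicate 1, the median of all exclusive regions, and up to 8.83. The part of local background in the chromosome 5 value was not tested. Regions with exactly 1 other library made up 3.13 per 100 regions with peaks in both lists. Their density was also higher on chromosomes 4, 13 and 5, at 4.50, 4.47 and 3.75. It was also lower on chromosomes 19 and 17, at 1.72 and 2.15. Chromosomes 8 and 10 went the other way, at 2.27 and 3.50. The differences between chromosomes were not tested.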

How the data were processed

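H3K27ac libraries of SW872 cells, 2 for each of 7 labels, were read from 14 peak lists, and 14 input libraries were left out. The study's methods say that the authors used Atropos for trimming, BWA-MEM for alignment to the GRCh37/hg19 genome, a filter against greylist regions and reads with several alignments, and MACS2 for narrow peaks. bcl2fastq, BWA and MACS2 are named in the submitters' processing notes without versions. The deposited lists give, as the authors' peak caller wrote them, the fold of each peak summit over its local background (a ratio), its −log10 p and −log10 q values and a score, which was not used. The methods state a limit on q of 0.1 and pooled replicates, whereas these lists are 1 per library and hold no q above 0.05.

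Groups came from the sample labels, and the construct in the peak names was kept beside them. Peaks that overlapped or touched were merged over the 14 lists. Where a region had several peaks of 1 list, the strongest by −log10 p gave its values, and ranks were by −log10 p. Summit fragment counts and backgrounds were solved from the fold and p of each peak, which gave whole counts within 0.01 in 99.77% of peaks or more in each list. Read totals were not used here, and the lowest solved background served as a relative measure of depth. Wilson intervals cover counting error only, and regions are not replicates. The only test was the exact permutation test over 12 libraries described with its result.

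The regions named were the 10 with the best rank in their weaker library, the 3 with the lowest −log10 q in it (with 1 more tied for it), the 3 with the widest interval covered by both libraries, those of the 1-Mb window with most regions, and the 3 best-ranked regions with exactly 1 other library. The 3 regions farthest from other peaks and the 2 shortest runs of 3 regions fall outside these rules and were chosen after their values were seen. The regions and these rules were chosen with earlier results of these data known. Alternatives tried were stricter limits on q (0.01, and 5 on the −log10 scale), lists of equal length, other merging and overlap rules, other distances, each library left out, a replicate block and the other naming. Genes, promoters and sequence motifs were not analysed here, since the reference given was GRCh38 and no coordinates were converted. The code, tested on simulated data, ran on Python 3.11.15 with pandas 2.3.3, scipy 1.17.1, numpy 2.4.6 and matplotlib 3.10.9.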

Additional observations from a re-analysis of the deposited data

How the results depend on the processing

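The count of exclusive regions rested on the peak threshold and on single lists. With a q of at most 0.01 it was 501, of which 446 were among the 542. With a −log10 q of at least 5 it was 361, of which 94 were among the 542, with a median fold of 5.12, a median width of 928 bp, 32.7% within 5 kb of another library's peak and 6.65% within 50 kb of each other. In lists of equal length it was 118, none of them among the 542, since no exclusive region ranked within 5721 in both lists, and these values were 11.9, 3691.25 bp, 11.0% and 1.69%. It was 966 where other libraries could cover under 50% of the interval shared by both lists, 344 with no other peak within 1000 bp, and 5 with the lists labelled YAP5SA in place of those named YAP5SA. Leaving out 1 library gave 542 to 7354 regions, median folds of 3.20 to 3.96, median widths of 380 to 602.25 bp, 47.4 to 74.2% within 5 kb of another library and 14.1 to 59.4% within 50 kb of each other. The ends of these ranges came from leaving out TAZ-CAMTA1 replicate 2 or 1 of the 2 YAP5SA-named lists, except the lowest count (TFE3 replicate 1) and the lowest share within 50 kb of each other (CAMTA1 replicate 2). The share within 5 kb of another library's peak was 51.1% with a q of at most 0.01, 27.5% with peaks within 1000 bp merged, 36.5% at 1 kb and 84.3% at 50 kb. The share within 50 kb of each other was 6.89% with that merging, 8.49% at 10 kb and 21.8% at 200 kb.

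The difference between labels in nearby peaks missed significance under every setting run. With permutations within replicate number as a replicate block it was 0.769 (exact p = 0.17), and replicate 1 was above replicate 2 in 4 of 6 labels. No label says that a replicate number marks a shared batch, and the peak names number the replicates of TAZ-CAMTA1 and TFE3 as 2 and 3, so pairing was not assumed. Leaving out 1 library gave 0.510 to 0.990 (exact p from 0.0671 to 0.277). It turned to −7.84 percentage points with full lists grouped by peak names (exact p = 0.303), a setting chosen after seeing the data. Motif and start-site alternatives were not run. Summits at exclusive regions held as few as 8 fragments, and the part of depth in the absence of a peak from the other lists was not tested.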
